A study of Mus musculus with 6 samples.

Results

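The MAP kinase cascade and the dual-specificity phosphatases that oppose it were examined at the RNA level in mouse bone marrow-derived macrophages (BMMs) with and without a myeloid knockout of Bub1, the gene of a mitotic checkpoint kinase. Members were taken by gene symbol: every gene named Map4k, Map3k, Map2k, Mapk or Dusp followed by a number, without Map3k7 and Map3k14. This gave 58 of the 15982 genes in the authors' deposited table, namely 5 Map4k, 14 Map3k, 7 Map2k, 12 Mapk and 20 Dusp genes. A further 7 mouse genes with such symbols (Dusp15, Dusp21, Dusp26, Dusp27, Map3k19, Map3k21 and Mapk15) were not analysed here. Bub1 cKO libraries came from BMMs of mice with a myeloid-specific conditional knockout of Bub1, and Ctrl libraries from BMMs of control mice, with 3 libraries per genotype. Cells of both genotypes were held for 3 days with the macrophage growth factor M-CSF (20 ng/ml) and then for 2 days with RANKL, the cytokine that drives osteoclast formation, at 50 ng/ml on top of M-CSF at 20 ng/ml. No library without RANKL is part of the comparison. The Cre driver, the deleted exons, the alleles of the controls, and the strain, sex and age of the mice stay unstated (not given in the sources used here). Whether libraries of a genotype came from separate animals is not stated either, so the p-values rest on a spread between libraries that may be technical only.

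MAP kinase signalling runs as a relay of kinases. MAP4Ks and small GTPases activate MAP3Ks, MAP3Ks phosphorylate MAP2Ks, and MAP2Ks phosphorylate a threonine and a tyrosine in the activation loop of the MAP kinases ERK, JNK and p38. Dual-specificity phosphatases remove phosphate from both residues and end the signal, and many of them are themselves induced by it. In osteoclast precursors, RANK signals through TRAF6 to all these branches, and M-CSF drives ERK for survival and growth.

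Each gene has 1 expression value per genotype, in TPM, in the authors' deposited table, so no spread between libraries can be given for a level. Libraries were made with a 3' tag kit, in which dividing by transcript length lowers long transcripts, so TPM orders between genes are approximate. The log2 change is the deposited one, log2 of (Bub1 cKO + 1)/(Ctrl + 1), and it understates the change of low genes. The fitted log2 change is the one that the authors' test estimated, computed as the deposited statistic times its standard error, and the 95% interval is around it. A positive value of either means higher in Bub1 cKO. The 2 changes can differ, even in sign, and the p-values belong to the fitted one. A gene passed the test at an adjusted p under 0.05 over the whole table.

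Bub1 itself stood at 5.32 TPM in Bub1 cKO and 6.73 TPM in Ctrl in the authors' deposited table, with an adjusted p of 0.985. Tags at its 3' end need not come from the deleted exons, and the value is no check of the genotype. The 10 osteoclast and 10 macrophage markers examined all averaged 1 TPM or more. Osteoclast markers summed to 2298 TPM in Bub1 cKO and 1987 TPM in Ctrl, and macrophage markers to 1301 TPM in Bub1 cKO and 2709 TPM in Ctrl. Of the 10 osteoclast markers 8 had a positive statistic, and the median log2 change was 0.37. At an unadjusted p under 0.05, 5 of them were higher and 0 lower in Bub1 cKO, beside 2.35% and 2.46% of all genes. No osteoclast marker passed the test. Of the 10 macrophage markers 8 had a negative statistic, 4 were lower and 1 higher in Bub1 cKO at an unadjusted p under 0.05, and the median log2 change was -0.39. Lyz2 alone passed the test. Without Lyz2 the other 9 summed to 538 TPM in Bub1 cKO and 568 TPM in Ctrl. Without the higher Cd68 as well, the other 8 summed to 232 TPM in Bub1 cKO and 308 TPM in Ctrl. Markers of other blood cells differed as well: 7 of 7 erythroid and megakaryocyte markers had the higher value in Bub1 cKO (647 TPM summed, against 285 TPM in Ctrl, of which Pf4 made up 288 and 266 TPM and the 4 globin genes 356 and 19.6 TPM), and 10 of 11 neutrophil markers did (241 TPM, against 102 TPM in Ctrl), with Alas2, Elane, Camp and Retnlg at 0 in Ctrl. S100a8 (92.8 TPM in Bub1 cKO and 41.9 TPM in Ctrl) and S100a9 (115 and 38.0 TPM) made up most of the neutrophil sums. Alas2, Elane, Camp and Retnlg stood at 2.07, 1.52, 0.508 and 0.283 TPM in Bub1 cKO, with standard errors from 2.55 to 4.08. Of the erythroid, megakaryocyte and neutrophil markers, the globin genes Hbb-bs and Hbb-bt and the neutrophil receptor gene Cxcr2 passed the test. Lymphocyte markers summed to 0.786 TPM in Bub1 cKO and 1.79 TPM in Ctrl. Stromal markers summed to 165 TPM in Bub1 cKO and 244 TPM in Ctrl, of which Pecam1, which blood cells also express, had 161 and 240 TPM. In such bulk samples, more cells of a type and more RNA per cell cannot be told apart. The part of these other cells in the results below was not tested.

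Transcripts of the cascade were expressed unevenly. Of the 58 members 15 averaged 10 TPM or more, 27 lay between 1 and 10 TPM, and 16 lay below 1 TPM. The MAP2K tier was the most abundant, with 375 TPM summed in Bub1 cKO and 294 TPM in Ctrl. DUSP genes summed to 308 TPM in Bub1 cKO and 281 TPM in Ctrl. The MAP kinases themselves summed to 89.2 TPM in Bub1 cKO, against 168 TPM in Ctrl. MAP4Ks had 70.9 TPM in Bub1 cKO and 48.4 TPM in Ctrl in the authors' deposited table, and MAP3Ks 50.7 and 56.0 TPM. A few genes carried most of each sum, as the plot of group values shows.

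**Figure D1:**
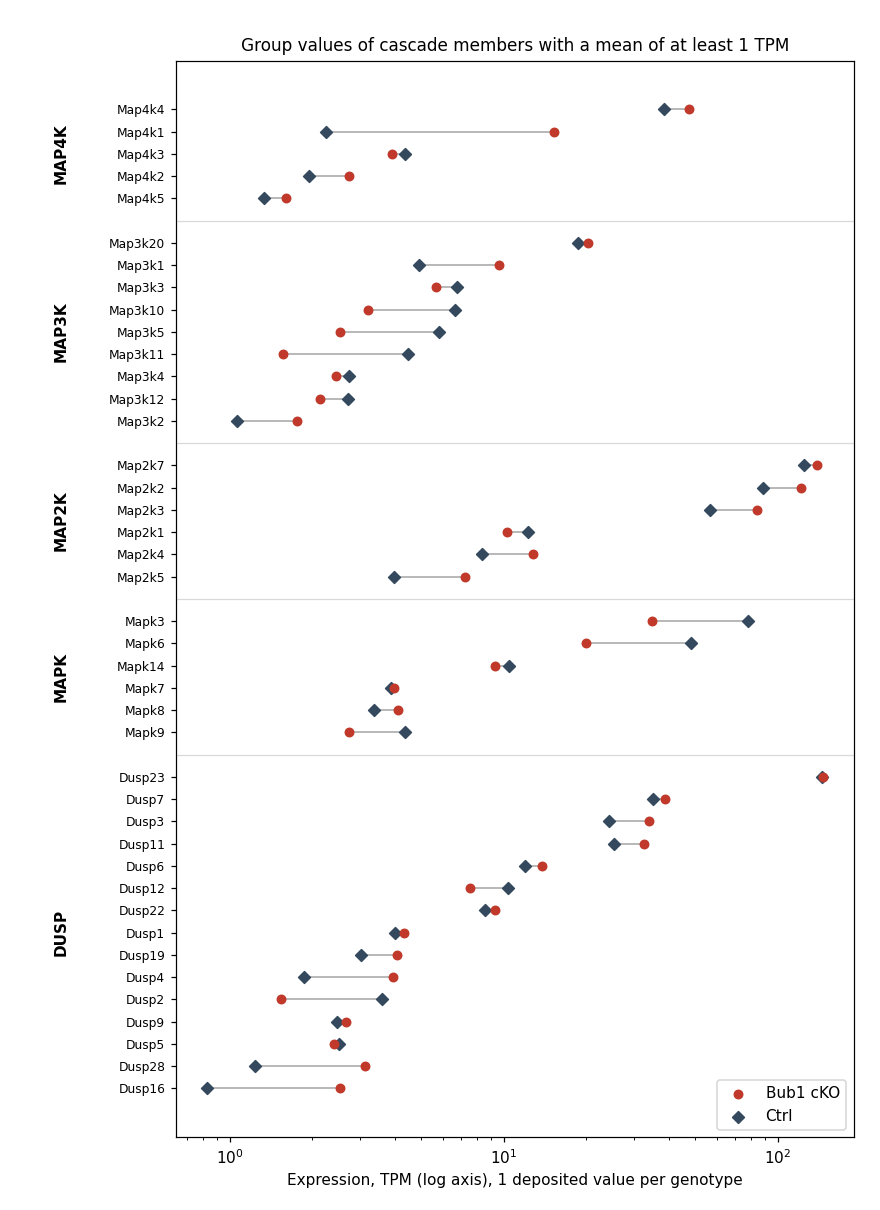
Expression in TPM (log axis) of 41 of the 42 members averaging 1 TPM or more, ordered within each tier by mean, with 1 deposited value for Bub1 cKO (red circles) and 1 for Ctrl (dark diamonds). Map2k7, Map2k2, Map2k3 and Dusp23 lie to the right, and the longest lines between the genotypes belong to Map4k1, Dusp16, Map3k11, Dusp28 and Mapk6, in that order.

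A single member, Map4k4, passed the test, or 1 of 58, where 0.181% of all genes passed. It was higher in Bub1 cKO, as 0.113% of all genes were at this threshold, and no member was lower, as 0.0688% were. At an unadjusted p under 0.05 there were 7 of 58 members (12.1%), beside 4.81% of all genes. Of these 7, 4 were higher in Bub1 cKO (Map4k4, Map4k1, Map2k3 and Map2k2), a direction and threshold that 2.35% of all genes met. The other 3, among them Map3k11 and Mapk3, were lower in Bub1 cKO, as 2.46% of all genes were. No DUSP gene reached this threshold. Over the 42 members averaging 1 TPM or more, 23 statistics were positive and 19 negative and the median log2 change was 0.11, beside 5397 positive, 5484 negative and a median of -0.01 over the 10881 such genes of the table.

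**Figure D2:**
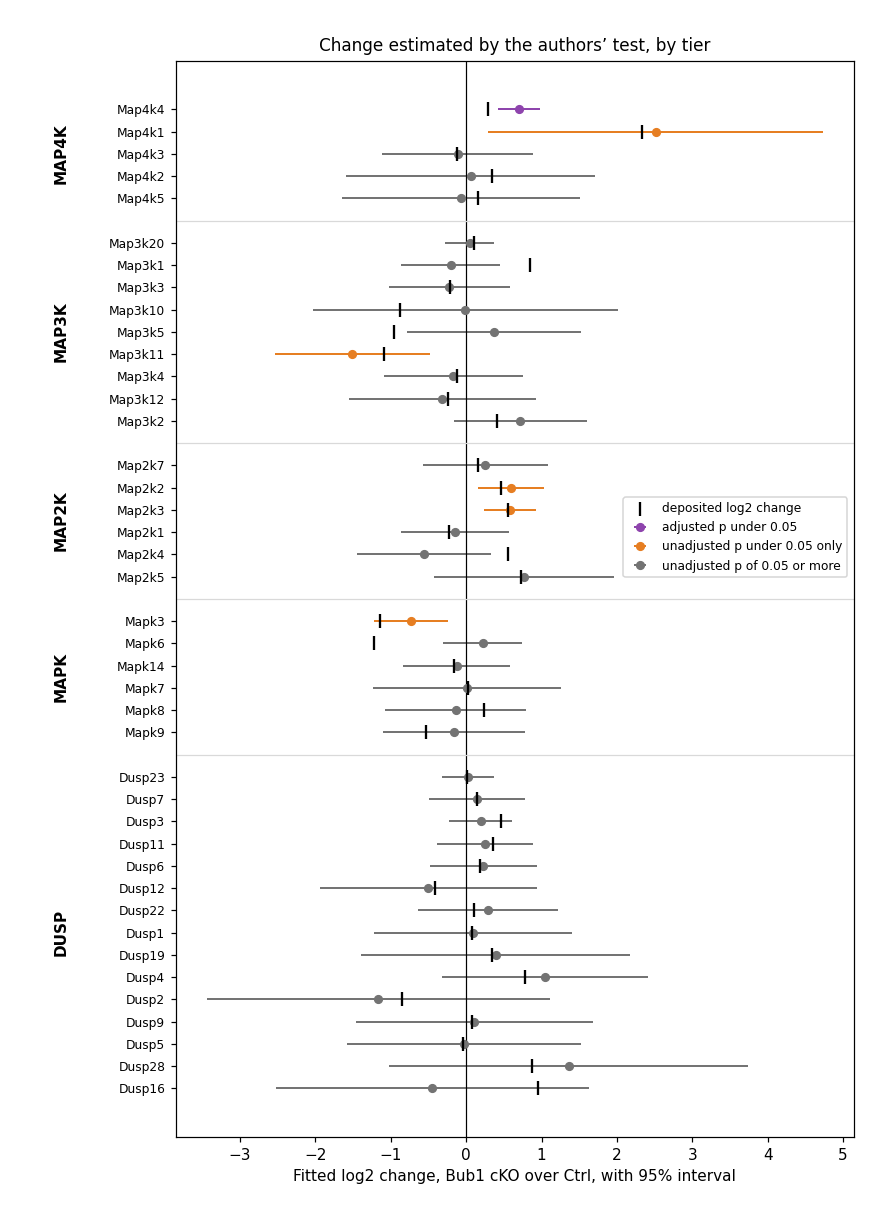
Fitted log2 change, Bub1 cKO over Ctrl, of 41 of the 42 members averaging 1 TPM or more by tier, with its 95% interval (lines) and the deposited log2 change (black ticks). The interval of Map4k4 runs from 0.42 to 0.98, the intervals of Map4k1, Map2k2 and Map2k3 also lie above 0, and those of Map3k11 and Mapk3 lie below it.

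At the top of the cascade, Map4k4 encodes a Ste20-type kinase that acts upstream of JNK and on cell adhesion. It lies on chromosome 1, 39900913 to 40026310 on the plus strand (GENCODE M21, GRCm38). Map4k4 had 47.3 TPM in Bub1 cKO and 38.5 TPM in Ctrl in the authors' deposited table, the highest level of its tier in both genotypes. It rose in Bub1 cKO, with a fitted log2 change of 0.70 (95% interval 0.42 to 0.98) and an adjusted p of 0.002 (the authors' test). Its deposited log2 change was smaller, 0.29, and lies below that interval. With p adjusted again over genes averaging 1 TPM or more, and over those averaging 5 TPM or more, Map4k4 had adjusted p of 0.00133 and 0.000875 (Benjamini-Hochberg).

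Map4k1 encodes HPK1, a kinase of blood cells that restrains antigen receptor signalling in lymphocytes, and lies on chromosome 7, 28982050 to 29003279 on the plus strand. It stood at 15.3 TPM in Bub1 cKO, against 2.25 TPM in Ctrl, in the authors' deposited table. The log2 change was 2.33, the largest of any member, but the standard error was 1.13, the unadjusted p 0.026 and the adjusted p 0.902. The 95% interval of the fitted change, 0.29 to 4.73, spans small and very large differences. In the same libraries neutrophil markers, mostly S100a8 and S100a9, summed to 241 TPM in Bub1 cKO, against 102 TPM in Ctrl. The globin genes summed to 356 TPM in Bub1 cKO, against 19.6 TPM in Ctrl, while lymphocyte markers were near 0 in both genotypes. The part of these cells in the Map4k1 value was not tested. The other MAP4Ks were low, and none had a statistic beyond 1 in either direction. Map4k3, which encodes a kinase linking amino acids to mTOR, had 3.91 TPM in Bub1 cKO and 4.36 TPM in Ctrl in the authors' deposited table (fitted log2 change -0.11, interval -1.12 to 0.89).

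In the MAP3K tier, 9 of 14 genes averaged 1 TPM or more, of which 3 had a positive and 6 a negative statistic. Their median log2 change was -0.22, and -0.17 with the fitted change. Over those averaging 5 TPM or more (Map3k20, Map3k1 and Map3k3) the median of the deposited change was 0.11. The fitted changes of these genes were 0.05, -0.21 and -0.22. The direction of the deposited change thus does not hold across filters, and the tier median rests on few genes. Map3k20, also known as ZAK and activated by stalled ribosomes, had the highest level, 20.2 TPM in Bub1 cKO and 18.7 TPM in Ctrl in the authors' deposited table. Its fitted log2 change was 0.05, with a narrow interval from -0.28 to 0.37. Map3k11, which encodes the mixed-lineage kinase MLK3 that links Rac and Cdc42 to JNK, had 1.57 TPM in Bub1 cKO and 4.48 TPM in Ctrl in the authors' deposited table. Its fitted log2 change was -1.51 (interval -2.54 to -0.48), with an unadjusted p of 0.004 and an adjusted p of 0.448. Map3k11 lies on chromosome 19, 5688742 to 5702865 on the plus strand, and overlaps Pcnx3 by 167 bases on the other strand. Pcnx3 had 9.31 TPM in Bub1 cKO and 8.68 TPM in Ctrl in the authors' deposited table, and the sources used here do not say whether counting used strand.

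The MAP3Ks best known from stress and immune signalling had intervals that spanned 0. Map3k1 encodes MEKK1, a JNK activator. It was listed in the authors' deposited table at 9.64 TPM in Bub1 cKO and 4.90 TPM in Ctrl, with a log2 change of 0.85, yet the fitted change was -0.21 (interval -0.87 to 0.46). Map3k5 encodes ASK1, the kinase of oxidative stress. It showed the opposite conflict, listed in the authors' deposited table at 2.52 TPM in Bub1 cKO and 5.82 TPM in Ctrl with a log2 change of -0.95, but with a fitted change of 0.37 (interval -0.78 to 1.52). The direction of neither gene can be read from these values. Map3k3, encoding MEKK3 upstream of ERK5, had 5.67 TPM in Bub1 cKO and 6.76 TPM in Ctrl in the authors' deposited table (fitted change -0.22, interval -1.03 to 0.58). Map3k2, its close relative MEKK2, had 1.76 TPM in Bub1 cKO and 1.07 TPM in Ctrl in the authors' deposited table, with the most positive statistic of the tier (1.60, unadjusted p = 0.11). Map3k8, or TPL2, which carries Toll-like receptor signals to ERK in macrophages, was low in both genotypes, at 0.604 TPM in Bub1 cKO and 1.27 TPM in Ctrl in the authors' deposited table, and its standard error of 1.42 leaves no usable estimate.

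The MAP2K tier held 3 of the 4 most abundant transcripts of the cascade. Map2k3, which encodes MKK3, an activator of p38, had 83.9 TPM in Bub1 cKO and 56.7 TPM in Ctrl in the authors' deposited table. Its deposited and fitted changes were close to each other, at 0.56 and 0.58 (interval 0.24 to 0.93). The unadjusted p was 0.00078, the second smallest of the cascade, and the adjusted p was 0.211. Map2k2, which encodes MEK2, an activator of ERK, had 122 TPM in Bub1 cKO and 88.0 TPM in Ctrl in the authors' deposited table, with a fitted log2 change of 0.59 (interval 0.15 to 1.03), an unadjusted p of 0.008 and an adjusted p of 0.651. Both genes were higher in Bub1 cKO by about the same fitted amount, but neither passed the test. Map2k3 lies on chromosome 11, 60932033 to 60952811, and Map2k2 on chromosome 10, 81105915 to 81133975, both on the plus strand (GRCm38).

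Promoter windows from RefSeq (GRCm38.p6, 250 bases before to 50 after the annotated start) were found for 48 of the 58 members, in 63 windows. They are printed for the pair of MAP2K genes with higher values and for Map3k11, the MAP3K with the lower value, because these are the members at an unadjusted p under 0.05 with 1 such window each. Capitals mark matches on either strand to a GC box with the letters GGGCGG, to a box of the letters CCAAT, to an AP-1 site with the letters TGANTCA, to a cAMP response element with the letters TGACGTCA or to an ETS site with the letters CCGGAAG. No matches overlap in the printed windows. The windows are chr10:81105665-81105964 for Map2k2, chr11:60931804-60932103 for Map2k3 and chr19:5688881-5689180 for Map3k11, all on the plus strand. The Map3k11 window begins after the GENCODE M21 start of the gene (5688742), so RefSeq and GENCODE place this start differently and the window does not cover the GENCODE one.
Map2k2: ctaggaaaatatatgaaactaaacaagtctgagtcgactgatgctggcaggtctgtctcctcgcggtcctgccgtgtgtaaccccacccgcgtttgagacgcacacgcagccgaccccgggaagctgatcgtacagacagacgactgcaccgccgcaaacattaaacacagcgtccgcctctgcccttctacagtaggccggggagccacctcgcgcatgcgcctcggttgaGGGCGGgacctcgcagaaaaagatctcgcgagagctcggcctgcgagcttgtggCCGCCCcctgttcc
Map2k3: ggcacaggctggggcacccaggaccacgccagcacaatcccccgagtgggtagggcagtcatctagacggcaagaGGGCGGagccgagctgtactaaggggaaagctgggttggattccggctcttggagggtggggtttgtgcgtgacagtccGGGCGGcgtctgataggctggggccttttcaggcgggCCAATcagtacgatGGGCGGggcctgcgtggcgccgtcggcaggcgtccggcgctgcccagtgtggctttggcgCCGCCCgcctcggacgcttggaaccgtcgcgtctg
Map3k11: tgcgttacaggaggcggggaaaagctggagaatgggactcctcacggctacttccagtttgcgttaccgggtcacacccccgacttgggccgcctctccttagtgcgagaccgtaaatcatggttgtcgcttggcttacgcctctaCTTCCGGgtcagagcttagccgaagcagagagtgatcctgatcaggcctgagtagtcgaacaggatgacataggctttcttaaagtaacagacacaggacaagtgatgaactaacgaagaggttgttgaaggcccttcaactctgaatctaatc
The window of Map2k3 is 68.0% G or C, with 4 GC boxes and 1 CCAAT box. That of Map2k2 is 60.7% G or C with 2 GC boxes, and that of Map3k11 is 52.0% G or C with 1 ETS site and no GC box. Among 32851 windows of this length, 35.7% held a GC box, 37.4% a CCAAT box, 7.81% an AP-1 site, 1.79% a cAMP response element and 8.86% an ETS site. Of the 63 member windows, 60.3% held a GC box, 36.5% a CCAAT box, 6.35% an AP-1 site, 4.76% a cAMP response element and 4.76% an ETS site. The 32851 windows were not limited to expressed genes, a gene can have several windows, and the difference in shares was not tested. A match describes the letters in the window, and no binding was measured.

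The other MAP2Ks gave no such values. Map2k7, which encodes the JNK activator MKK7 and was the most abundant kinase of the cascade, had 139 TPM in Bub1 cKO and 125 TPM in Ctrl in the authors' deposited table (fitted log2 change 0.25, interval -0.57 to 1.08). Map2k1, encoding MEK1, the partner of MEK2, had 10.3 TPM in Bub1 cKO and 12.2 TPM in Ctrl in the authors' deposited table (fitted change -0.15, interval -0.86 to 0.56), and it overlaps the little expressed Uchl4 on the other strand. Map2k4, encoding MKK4, which acts on JNK and p38, had 12.8 TPM in Bub1 cKO and 8.34 TPM in Ctrl in the authors' deposited table, but its deposited change of 0.56 and fitted change of -0.56 have opposite signs. Map2k5, the activator of ERK5, had 7.23 TPM in Bub1 cKO and 3.98 TPM in Ctrl in the authors' deposited table (unadjusted p = 0.206). Map2k6, the p38 activator most like Map2k3, was listed at 0.319 TPM in Bub1 cKO and 0.279 TPM in Ctrl in the authors' deposited table, so Map2k3 was the far more abundant of this pair.

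Among the MAP kinases, Mapk3, which encodes ERK1, had a lower value in Bub1 cKO. It had 34.8 TPM in Bub1 cKO and 77.7 TPM in Ctrl in the authors' deposited table. Its deposited log2 change was -1.14 and its fitted change -0.73 (interval -1.22 to -0.23), with an unadjusted p of 0.004 and an adjusted p of 0.445. Mapk3 did not pass the test over the whole table, and its fitted change is smaller than the ratio of TPM values gives. Mapk3 lies on chromosome 7, 126759601 to 126765819 on the plus strand (GRCm38), and overlaps no other gene of the table. The macrophage marker Lyz2 was also lower in Bub1 cKO, at 762 TPM against 2141 TPM in Ctrl in the authors' deposited table, and so were Csf1r, Itgam and Mrc1 at an unadjusted p under 0.05, while Cd68 was higher. Without Lyz2, the other 9 macrophage markers summed to 538 TPM in Bub1 cKO and 568 TPM in Ctrl. The part of a shift in cell makeup in the Mapk3 value was not tested.

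JNK and p38 genes showed no difference that these libraries could resolve. Mapk14, which encodes p38α, the main p38 of osteoclast precursors, had 9.27 TPM in Bub1 cKO and 10.5 TPM in Ctrl in the authors' deposited table, with a fitted log2 change of -0.12 (interval -0.83 to 0.59). Mapk8 (JNK1) had 4.13 TPM in Bub1 cKO and 3.36 TPM in Ctrl in the authors' deposited table, and Mapk9 (JNK2) 2.72 and 4.38 TPM, with fitted changes of -0.14 (interval -1.07 to 0.79) and -0.16 (interval -1.11 to 0.78). These intervals reach far to both sides of 0, so equal levels are not shown. The remaining p38 genes Mapk11, Mapk12 and Mapk13, the neuronal JNK gene Mapk10 and Mapk4 (ERK4) all had means below 1 TPM. Mapk7 (ERK5), which Map2k5 activates, had 3.99 TPM in Bub1 cKO and 3.90 TPM in Ctrl in the authors' deposited table.

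Mapk6, the gene of the atypical kinase ERK3, had deposited and fitted changes that lay farthest apart, in standard errors, among the members averaging 1 TPM or more. The authors' deposited table lists it at 20.0 TPM in Bub1 cKO and 48.1 TPM in Ctrl, with a log2 change of -1.22. The authors' test nonetheless gave a fitted change of 0.22 (interval -0.30 to 0.74, adjusted p = 0.985), so the deposited change lies outside the interval of the same gene. The same held for Map4k4, Map3k1, Map3k5 and Map2k4. In all, 7 of the 42 members averaging 1 TPM or more (16.7%) had opposite signs, beside 12.3% of all such genes: Map4k5, Map3k1, Map3k5, Map2k4, Mapk6, Mapk8 and Dusp16. For 8 of the 42 (19.0%, beside 11.6% of all such genes) the 2 changes differed by more than 1 standard error. The sum of MAP kinase TPM given above rests in part on Mapk6 and should be read with this in mind.

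**Figure D3:**
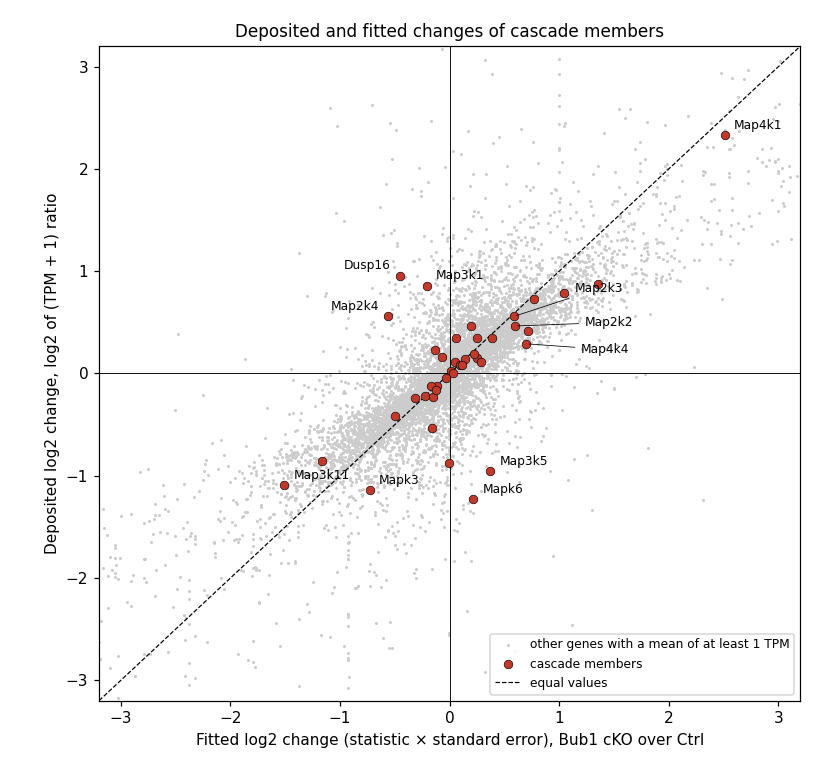
Deposited log2 change (vertical axis, from TPM + 1) against the fitted log2 change (horizontal axis), both Bub1 cKO over Ctrl, for 41 of the 42 members averaging 1 TPM or more (red) and all other such genes (grey, 330 of them beyond the axes). Map2k3 lies near the dashed line of equal values, while Mapk6 and Map3k5 lie at the lower right and Map3k1, Map2k4 and Dusp16 at the upper left, where the signs disagree.

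Of the phosphatases, 15 of 20 averaged 1 TPM or more, and 11 of these had a positive and 4 a negative statistic, with a median log2 change of 0.14. None reached an unadjusted p of 0.05, and the smallest was 0.132. Of the most abundant DUSP genes, Dusp23, Dusp3 and Dusp11 are atypical ones, whose products lack the domain that docks MAP kinases. Dusp23 had 146 TPM in Bub1 cKO and 145 TPM in Ctrl in the authors' deposited table, the highest mean of all members, with a fitted log2 change of 0.03 (interval -0.32 to 0.37). Dusp3, encoding VHR, which acts on ERK and JNK, had 34.0 TPM in Bub1 cKO and 24.3 TPM in Ctrl in the authors' deposited table (fitted change 0.20, interval -0.22 to 0.61). Dusp11, whose product acts on RNA 5' ends rather than on kinases, had 32.6 TPM in Bub1 cKO and 25.3 TPM in Ctrl in the authors' deposited table.

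Dusp6 and Dusp7, whose products act on ERK in the cytoplasm, had the highest levels of the classical MAP kinase phosphatases. Dusp7 had 38.8 TPM in Bub1 cKO and 35.2 TPM in Ctrl in the authors' deposited table (fitted log2 change 0.14, interval -0.49 to 0.78). Dusp6, a feedback gene that ERK signalling induces, had 13.8 TPM in Bub1 cKO and 11.998 TPM in Ctrl in the authors' deposited table (fitted change 0.23, interval -0.49 to 0.94). Neither passed the test. The nuclear, inducible phosphatases were low. Dusp1, an early gene whose product acts on p38 and JNK, had 4.31 TPM in Bub1 cKO and 4.03 TPM in Ctrl in the authors' deposited table (fitted change 0.09, interval -1.22 to 1.40), and it overlaps Ergic1 on the other strand. Dusp5, specific for ERK, had 2.40 TPM in Bub1 cKO and 2.51 TPM in Ctrl in the authors' deposited table (fitted change -0.03, interval -1.58 to 1.52).

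The largest statistic among the phosphatases was that of Dusp4, a nuclear phosphatase of ERK and JNK, with 3.96 TPM in Bub1 cKO and 1.87 TPM in Ctrl in the authors' deposited table (fitted log2 change 1.05, interval -0.32 to 2.41). Dusp28, an atypical phosphatase, had 3.11 TPM in Bub1 cKO and 1.24 TPM in Ctrl in the authors' deposited table (fitted change 1.36, interval -1.03 to 3.74). Dusp2, a nuclear phosphatase of immune cells, had 1.54 TPM in Bub1 cKO and 3.60 TPM in Ctrl in the authors' deposited table, the most negative statistic of the tier (unadjusted p = 0.315). It lies 462746 bases from Bub1 on chromosome 2, with Dusp2 at 127336159 to 127338376 and Bub1 at 127801122 to 127831865 (GRCm38), and the part of this linkage in its value was not tested. Of the JNK and p38 phosphatases, Dusp16 had 2.53 TPM in Bub1 cKO and 0.826 TPM in Ctrl with a fitted change of the opposite sign (-0.45, interval -2.53 to 1.62), and Dusp10 was listed at 0.051 TPM in Bub1 cKO and 0.053 TPM in Ctrl in the authors' deposited table.

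The 16 members below a mean of 1 TPM give little information. Their standard errors ran from 1.29 to 4.08 on the log2 scale, and the smallest unadjusted p among them was 0.21. Of all 58 members, 7 were listed at 0 in 1 genotype: Mapk4, Mapk13, Map3k13, Dusp8, Dusp13 and Dusp14 in Ctrl and Mapk10 in Bub1 cKO. All 7 had a mean below 1 TPM.

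Genes around the cascade were described with 6 lists, and no gene of any list passed the test. The list of upstream activators and adaptors had 9 positive and 22 negative statistics among 31 genes averaging 1 TPM or more. Its median log2 change was -0.17. It also holds Nf1 and Rasa1, which switch Ras off. At an unadjusted p under 0.05, 3 of its 33 genes were lower in Bub1 cKO and 0 were higher, beside 2.46% of all genes lower and 2.35% higher. Taok3, a MAP3K of the TAO family, had 66.4 TPM in Bub1 cKO and 75.9 TPM in Ctrl in the authors' deposited table (unadjusted p = 0.03), and Sos2, which loads Ras with GTP, had 4.29 and 7.53 TPM (unadjusted p = 0.04). Rras2, a Ras-type GTPase, was listed at 0.066 TPM in Bub1 cKO and 1.51 TPM in Ctrl in the authors' deposited table (unadjusted p = 0.01). The scaffold list, which also holds the Raf inhibitor Pebp1, had 4 positive and 8 negative statistics among 12 genes and a median log2 change of -0.10. Among them Shoc2, which helps to activate Raf, had 11.6 TPM in Bub1 cKO and 6.57 TPM in Ctrl in the authors' deposited table (unadjusted p = 0.009), and Iqgap1 had 62.0 and 72.6 TPM (unadjusted p = 0.029).

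Downstream of the MAP kinases, 2 of 9 kinase genes had a positive and 7 a negative statistic, with a median log2 change of -0.40 and 0 of 10 listed genes at an unadjusted p under 0.05, beside 4.81% of all genes. The deposited and fitted changes had opposite signs in 1 of the 9 (11.1%, beside 12.3% of all genes averaging 1 TPM or more). They differed by more than 1 standard error in 2 of the 9 (22.2%, beside 11.6%). The smallest p belonged to Mapkapk5, which encodes a kinase that ERK3 and p38 activate, at 177 TPM in Bub1 cKO and 275 TPM in Ctrl in the authors' deposited table (fitted log2 change -0.47, interval -1.20 to 0.25). Of 15 transcription factor genes 9 had a positive and 6 a negative statistic. Jund, a partner of Fos in AP-1, was the 1 gene of the 16 listed at an unadjusted p under 0.05 (6.25%), with 58.9 TPM in Bub1 cKO and 41.4 TPM in Ctrl in the authors' deposited table (fitted change 0.53, interval 0.10 to 0.95, adjusted p = 0.805). ERK-induced early genes and feedback inhibitors were evenly divided, with 7 positive and 7 negative statistics and a median log2 change of 0.08. The cyclin gene Ccnd1 was the only one of the 21 listed genes at an unadjusted p under 0.05 (4.76%, near the 4.81% of all genes), with 93.9 TPM in Bub1 cKO and 70.8 TPM in Ctrl in the authors' deposited table (unadjusted p = 0.027, adjusted p = 0.905). The list of other MAP kinase phosphatases had 3 positive and 6 negative statistics, with 0 of 10 genes at an unadjusted p under 0.05. It also holds Styx, which has no phosphatase activity, and Ssu72, which acts on RNA polymerase II. Ssu72 had the smallest p (26.5 TPM in Bub1 cKO and 34.6 TPM in Ctrl in the authors' deposited table, unadjusted p = 0.22).

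**Figure D4:**
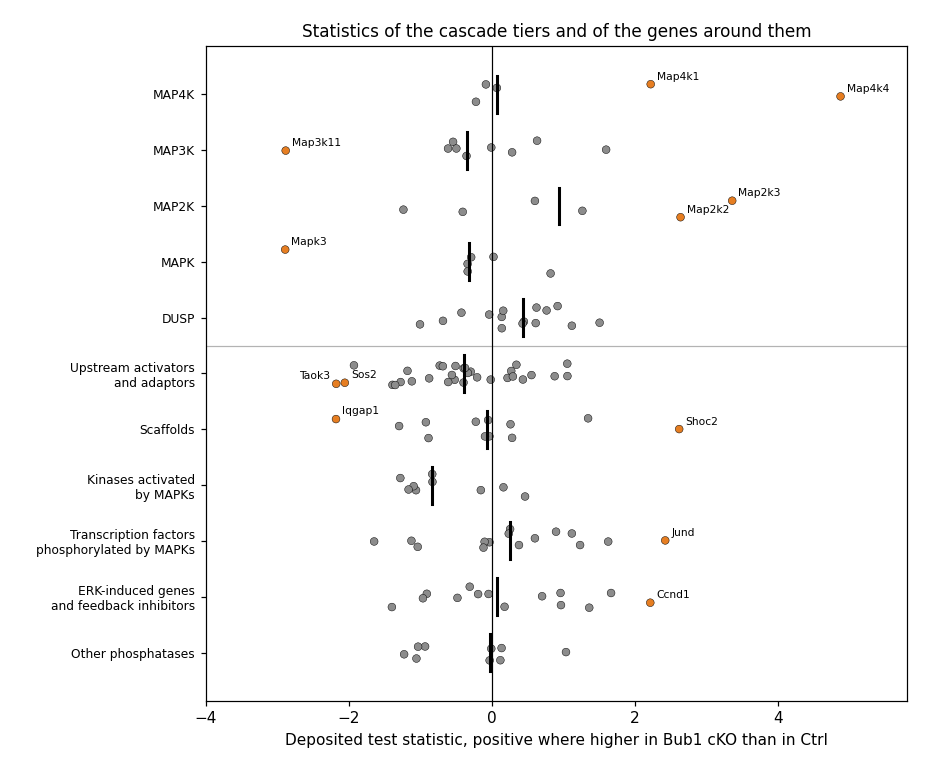
Deposited test statistic (positive where higher in Bub1 cKO than in Ctrl) of genes averaging 1 TPM or more, without 1 MAP kinase gene, for the 5 tiers of the cascade (above the grey line) and the 6 lists around it. Orange points are genes at an unadjusted p under 0.05, grey points the rest and black bars the medians of the points drawn, and vertical scatter within a row carries no meaning. Map4k4 stands farthest to the right, Mapk3 and Map3k11 farthest to the left.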

How the data were processed

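Per the labels' protocols, the QuantSeq 3' kit turned 25 ng of total RNA per sample into 6 libraries, 3 of Bub1 cKO and 3 of Ctrl. The deposited file is the authors' comparison of Bub1 cKO with Ctrl, and its header names RaNA-seq, a web service. How reads were aligned, counted and tested, and on which build, stays unstated (not given in the sources used here). Expression values of the authors were read as TPM: the deposited columns sum to 999954 (Bub1 cKO) and 999891 (Ctrl), and in sets of 101 to 467 genes with an identical statistic and standard error the value fell with the longest annotated transcript (Spearman's rho -0.94 to -0.86). The deposited log2 change equals log2 of the ratio of TPM + 1 within 0.002 in 15982 genes. The authors' standard errors and statistics were taken as scores. For 15974 genes a 2-sided normal tail of that statistic gives the deposited p-value within 0.001. Depth per library is unknown, and the standard error stands for the precision.

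Computed here (Python 3.11.15, pandas 2.3.3) were the fitted change and its 95% interval, counts, medians, sums and Benjamini-Hochberg adjustment, tested on simulated data. The design assumed the authors' deposited p-values, and none of the tests is new. Positions come from GENCODE M21 (GRCm38), matched without ID version for 58 of 58 members. Named genes follow a rule: members at an unadjusted p under 0.05, the highest means and largest statistics per tier, those at 0 in 1 genotype averaging 1 TPM or more, a list of well-known members, and in each list the genes at an unadjusted p under 0.05 or with the smallest p. Map4k5, Map2k5, Mapk7, Dusp11 and the low members fall outside it, being picked with their values in view. Nf1, Rasa1, Pebp1 and Styx of the lists fall outside it as well and are given without values. Members and lists were chosen with earlier results of these data known. Markers of mast cells and basophils were not analysed here. Alternatives were other thresholds, filters, pseudocounts, centring, the other change and leaving out members that overlap another gene. Protein sequences were not used here. Counts and sums over the tiers cover every member, and 1 of them is not reported here by itself or drawn.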

Additional observations from a re-analysis of the deposited data

How the results depend on the processing

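Map4k4 was the 1 member called at an adjusted p under 0.1, with p adjusted again over genes averaging 1 or 5 TPM or more, and without members that overlap another gene. The count of 7 members at an unadjusted p under 0.05 was 5 at 0.01 and 6 over genes averaging 5 TPM or more. Medians of the tiers depend on few genes: that of the MAP4Ks (0.29) was 1.31 over genes averaging 5 TPM or more, where 2 statistics were positive, and 0.06 with the fitted change, that of all members (0.11) was 0.04 with the fitted change, and that of the MAP kinases (-0.53) was -0.11 with no filter, -1.14 over those averaging 10 TPM or more and -0.14 with the fitted change. The MAP3K median (-0.22) was 0.11 over genes averaging 5 or 10 TPM or more and -0.17 with the fitted change. Over genes averaging 5 TPM or more, the positive statistics numbered 1 MAP3K, 1 MAP kinase, 6 DUSPs and 14 members in all, since fewer genes are counted. With the deposited in place of the fitted log2 change, 7 named members reversed: Map3k1 (0.85), Mapk6 (-1.22), Mapk8 (0.23), Map2k4 (0.56), Map3k5 (-0.95), Dusp16 (0.95) and Dusp10 (-0.002). The cause was not tested. Leaving out a replicate needs values per library and was not run. No paired analysis was possible because the table holds 1 value per genotype. Members that overlap a gene on the same strand are Mapk10 and Dusp19, and the rule names neither.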

Other observations

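The deposited and the fitted log2 change disagreed more often in genes with more annotated transcripts. Among genes averaging 1 TPM or more, the signs were opposite in 16.2% of 6093 genes with 5 or more transcripts in GENCODE M21, in 9.94% of 3299 genes with 2 to 4 and in 1.39% of 1440 genes with 1. The 7 members with opposite signs were among the 29 members with 5 or more transcripts, and 0 of 8 members with 2 to 4 and 0 of 5 members with 1 had opposite signs. Multiplied by the longest annotated transcript, which undoes most of the length scaling, the MAP kinase with the highest mean of both genotypes was Mapk6 in place of Mapk3, while the genes with the highest mean in the other tiers were the same. In Bub1 cKO alone, Dusp11 then stood slightly above Dusp23.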
